A study of Rattus norvegicus with 12 samples.

Results

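From 20263 genes in all, the 48 described here were chosen by a list of identifiers as an ATF4 amino acid stress response. They are ATF4 itself with, among others, genes of amino acid synthesis, transport and tRNA charging. They were measured by poly(A)-selected RNA sequencing in 12 libraries labelled H9C2, an established rat cell line of embryonic heart origin, whose cells the labels call wild-type cardiomyocytes. The 4 groups had 3 biological replicates each and were held for 48 h. Ctrl cells had 5.5 mM glucose, HG cells 100 mM glucose, and HG-Res cells 100 mM glucose with 5 µM resveratrol, a plant polyphenol often used to activate sirtuins. HG-Res-SIRT7-Inh cells had 100 mM glucose, 5 µM resveratrol and 5 µM SirReal2, a compound that the labels call a SIRT7 inhibitor and that suppliers offer as a SIRT2 inhibitor; they are called the inhibitor group below. The labels describe no osmotic control for the high glucose, no vehicle and no group given the inhibitor alone.

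The list names 7 of its members, INHBE, ADM2, ATF4, DDIT3, TRIB3, CHAC1 and ASNS. It describes the rest only by class, as serine and one-carbon enzymes, amino acid transporters and tRNA synthetases. Which of the 41 others belong to these classes was not determined, and some may belong to none of them. The deposited tables give identifiers alone. The 7 names are taken from the order of the list, and the other members stay unnamed. The identifiers carry Ensembl's human prefix, whereas the labels give rat, and the values themselves were not assigned to a species here. The labelled cell type could not be checked against heart or muscle markers, since those are listed as symbols and could not be matched to the identifiers. Members were chosen with the values of HG against Ctrl known, INHBE and ADM2 because they were strongly lower in HG, so that comparison is given as a description with no test.

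ATF4 is a basic leucine zipper transcription factor whose translation increases when stress kinases phosphorylate the initiation factor eIF2. The kinase GCN2 does so when uncharged tRNA accumulates, the kinase PERK when the endoplasmic reticulum is overloaded. ATF4 then induces genes for making, importing and charging amino acids, among them ASNS, the asparagine synthetase. It also induces further regulators: DDIT3 encodes CHOP, a transcription factor that dimerises with related factors, and TRIB3 a pseudokinase that restrains ATF4. CHAC1 degrades glutathione. INHBE encodes a subunit of activin E, a secreted factor, and ADM2 a peptide hormone of the calcitonin family. mRNA levels say nothing direct of ATF4 translation, which was not measured.

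ATF4 and its C/EBP partners bind a composite element whose core can be written TGATGNAA. All 7 named members had a rat gene of the same symbol in RefSeq (build GRCr8), and the 250 bases before each start site were searched for these letters on both strands. Rat Inhbe, Trib3 and Chac1 held 1 match each, and Adm2, Atf4, Ddit3 and Asns held none in this window. Of 27457 rat promoters of this length, 899 (3.27%) held a match. The 4 promoters shown are those with a match and that of Adm2, shown because ADM2 and INHBE were both far lower in HG. They are written 5′ to 3′ on the gene's strand, with the match in capitals. All 3 matches lie on the opposite strand. A match is a description of letters and not of a bound site.
Inhbe (chr7:65064520-65064769, minus strand, match 228 bases before the start): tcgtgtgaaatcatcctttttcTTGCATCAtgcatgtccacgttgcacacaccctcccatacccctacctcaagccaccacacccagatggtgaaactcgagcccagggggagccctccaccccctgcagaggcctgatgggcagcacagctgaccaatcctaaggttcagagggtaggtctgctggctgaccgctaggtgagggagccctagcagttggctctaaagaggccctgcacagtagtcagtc
Adm2 (chr7:122272558-122272807, plus strand): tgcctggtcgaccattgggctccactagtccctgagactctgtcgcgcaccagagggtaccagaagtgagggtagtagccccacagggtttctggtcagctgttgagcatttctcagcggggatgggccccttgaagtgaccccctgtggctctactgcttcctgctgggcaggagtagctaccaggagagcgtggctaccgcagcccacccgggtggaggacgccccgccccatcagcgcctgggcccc
Trib3 (chr3:161275534-161275783, minus strand, match 21 bases before the start): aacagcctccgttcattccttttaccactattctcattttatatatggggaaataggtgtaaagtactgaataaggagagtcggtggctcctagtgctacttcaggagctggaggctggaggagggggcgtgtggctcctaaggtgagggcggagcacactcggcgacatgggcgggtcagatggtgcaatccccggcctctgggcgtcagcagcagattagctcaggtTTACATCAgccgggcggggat
Chac1 (chr3:126795881-126796130, plus strand, match 167 bases before the start): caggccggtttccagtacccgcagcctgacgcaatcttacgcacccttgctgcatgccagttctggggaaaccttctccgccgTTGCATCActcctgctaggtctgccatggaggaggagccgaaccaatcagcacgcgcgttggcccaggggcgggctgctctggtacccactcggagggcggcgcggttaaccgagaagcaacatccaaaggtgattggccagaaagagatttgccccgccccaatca

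Levels are given in CPM, counts scaled to an equal total per library and not by gene length, so no 2 genes are set against each other. From the low values, depth was about 30280000 to 33160000 reads per library. Replicates spread more in the inhibitor group: over the 12854 genes tested the median SD on the log2 scale was 0.242 in the inhibitor group, 0.132 in HG and 0.071 in HG-Res. On the first principal component, with 56.1% of the variance, HG replicate 2 (29.7) and inhibitor replicate 3 (-50.7) stood apart from the other 7 high-glucose libraries (-17.1 to 14.4). Counts below are therefore also given without these 2 libraries. Of the 48 members, 47 passed the filter on low values (0.5 CPM or more in 3 or more of the 9 libraries with high glucose). The remaining member reached at most 0.13 CPM in any library.

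The first comparison asked how the pathway stood in high glucose. The authors' deposited table of HG against Ctrl holds 354 marked genes, and 22 of the 48 members are among them, all 22 lower in HG and 0 higher. Among the 12854 genes expressed in the high-glucose libraries, 1.39% were marked lower in that table. Because the members were chosen with this contrast in view, nothing is read from that difference. The other 26 members are not in the table, so no Ctrl value was analysed here for them, among them ATF4 itself and DDIT3. In bulk RNA, fewer cells that express a gene and less of its RNA per cell cannot be told apart.

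INHBE was at 10.89, 11.15 and 11.12 CPM in Ctrl and at 1.95, 2.71 and 1.35 CPM in HG. ADM2 was at 17.01, 16.88 and 15.76 CPM in Ctrl and at 4.53, 6.12 and 5.53 CPM in HG. Both hormone genes had every HG library far below every Ctrl library, at 18.1% and 32.6% of the Ctrl mean. ASNS was at 243.75, 239.44 and 246.39 CPM in Ctrl and at 86.52, 83.22 and 92.42 CPM in HG, 35.9% of the Ctrl mean. The authors' deposited table gave log2 fold changes of -2.39 for INHBE, -1.55 for ADM2 and -1.41 for ASNS.

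TRIB3, the pseudokinase, and CHAC1, the glutathione-degrading enzyme, were also lower in HG. TRIB3 was at 100.42, 106.64 and 105.85 CPM in Ctrl and at 47.73, 56.26 and 42.21 CPM in HG, 46.7% of the Ctrl mean. CHAC1 was at 99.22, 102.23 and 104.11 CPM in Ctrl and at 54.49, 67.12 and 49.6 CPM in HG, 56% of the Ctrl mean. HG replicate 2 was the highest of the 3 HG libraries for INHBE, ADM2, TRIB3 and CHAC1, and the lowest for ASNS.

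The 17 unnamed members in the table had log2 fold changes from -1.51 to -0.60 in the authors' deposited table. That table marks 259 genes as lower and 95 as higher. The 22 members had a median of -1 and the 237 other genes marked lower -0.81, and 11 of the 22 were at least 2-fold lower, beside 32.9% of the others. In all 22 every HG library lay below every Ctrl library, as in 97.5% of the 237 others, all of them listed for a difference in this contrast. Of the 259 genes marked lower, 179 passed the filter on low values, and all 22 members are among these. The others thus include genes of lower level, and nothing is read from their difference from the members. ENSG00000176046 was at 23.83, 21.63 and 21.68 CPM in Ctrl and at 6.76, 8.53 and 7.23 CPM in HG. ENSG00000100889 was at 83.72, 82.11 and 85.87 CPM in Ctrl and at 33.67, 36.75 and 28.9 CPM in HG. These 2 had the largest differences among the unnamed members, -1.51 and -1.27 in the authors' deposited table. The smallest difference among members was -0.6; every gene in the table differs by at least 1.5-fold, so a smaller one would not be in it.

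**Figure D1:**
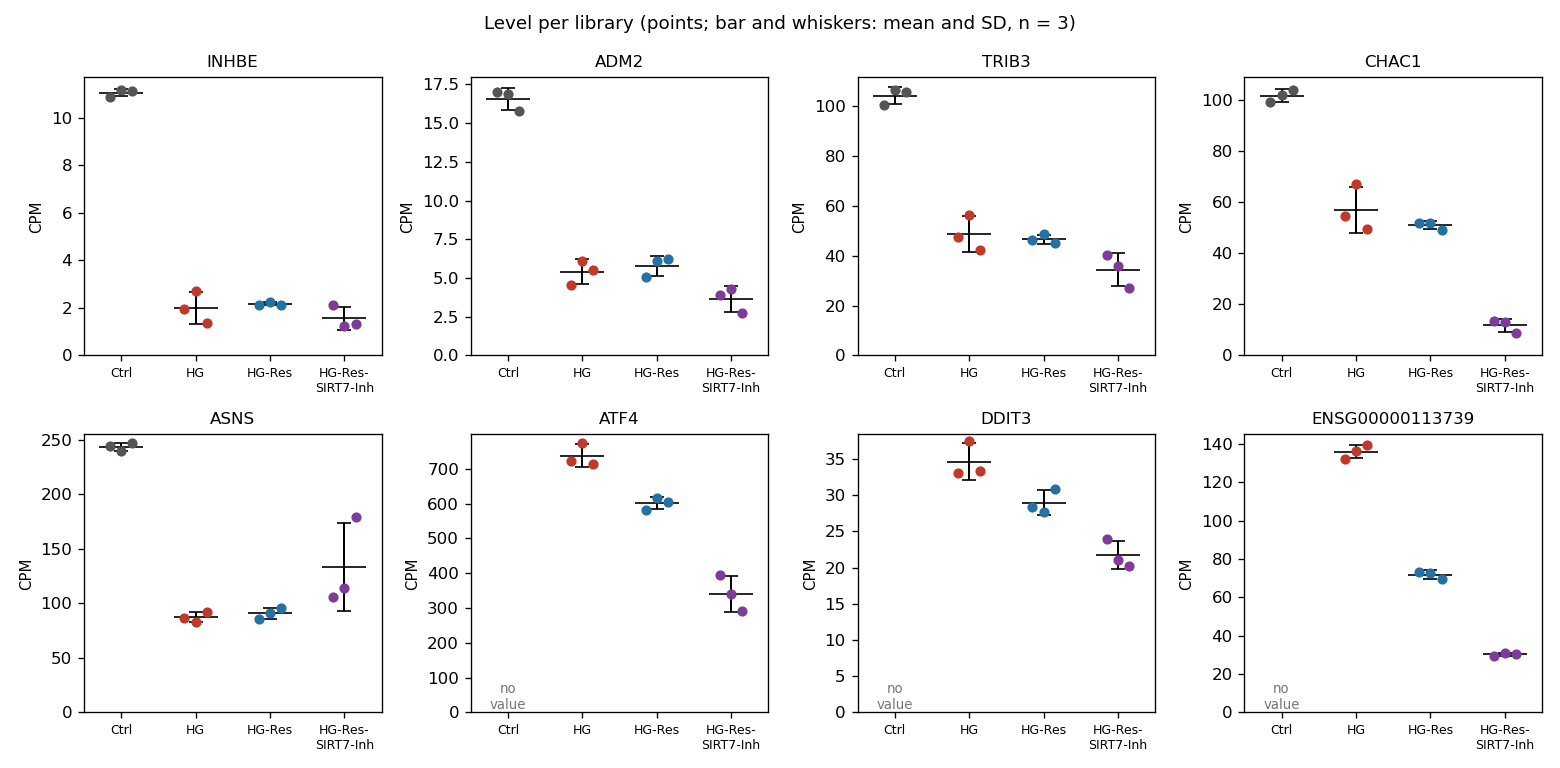
Level in CPM (vertical axes, from 0) of the 7 named members and ENSG00000113739 in each library, by group, with the mean and SD of 3 replicates; "no value" marks genes without a Ctrl value here. INHBE, ADM2, TRIB3, CHAC1 and ASNS sit lower in HG than in Ctrl, and in the inhibitor group CHAC1 (8.81 to 13.4 CPM) and ASNS (106.17 to 179.19 CPM) lie on opposite sides of HG-Res.

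The next question was how these levels differed with resveratrol in high glucose. Of the 47 members tested, 1 fell and 0 rose between HG-Res and HG in limma with Benjamini-Hochberg adjustment over all genes at 0.05, beside 0.708% of all genes called (0.381% lower and 0.327% higher). At an unadjusted p under 0.05, 6 were lower and 0 higher, beside 5.66% and 4.99% of all genes. By the q-values of the authors' deposited table, 6 were lower and 0 higher, beside 3.8% and 4.67%. The authors' own marks cover only some of these 6 and leave out ATF4. The median log2 change was -0.05 over the members and -0.001 over all genes. The HG libraries that set the glucose difference are the same ones used here, so the 2 comparisons share them.

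The member that fell was ENSG00000113739. It was at 132.36, 136.46 and 139.48 CPM in HG and at 73.41, 73.01 and 69.45 CPM in HG-Res. The groups lay far apart with little spread, with a log2 difference of -0.91 ± 0.09 (SE; limma adjusted p = 0.00221, range 0.000181 to 0.0283 over 16 alternatives). It is not among the genes marked for HG against Ctrl.

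ATF4 itself was at 722.12, 774.99 and 714.42 CPM in HG and at 582.88, 616.11 and 603.32 CPM in HG-Res. All 3 HG-Res libraries lay below all 3 HG libraries, but the log2 change of -0.29 ± 0.11 (SE) did not pass limma's adjusted threshold (adjusted p = 0.376). It passed without inhibitor replicate 3 (adjusted p = 0.045), without that library and HG replicate 2 (0.0322), and with the 2 groups alone in the fit (0.0352). The authors' deposited table gave it a q-value of 0.0222. DDIT3, the CHOP gene, was at 33.01, 37.54 and 33.4 CPM in HG and at 28.44, 27.64 and 30.87 CPM in HG-Res, again without overlap (log2 change -0.25 ± 0.11, SE, limma unadjusted p = 0.0442 and adjusted p = 0.448).

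The 5 named members that were lower in HG than in Ctrl did not pass the threshold between HG-Res and HG. INHBE was at 2.13, 2.24 and 2.13 CPM in HG-Res and ADM2 at 5.06, 6.1 and 6.24 CPM, with log2 changes of 0.10 ± 0.18 and 0.09 ± 0.16 (SE) against HG. ASNS was at 85.95, 90.97 and 95.59 CPM, a log2 change of 0.06 ± 0.18. TRIB3 was at 46.22, 48.73 and 45.16 CPM and CHAC1 at 51.85, 51.92 and 49.2 CPM, with log2 changes of -0.05 ± 0.16 and -0.15 ± 0.17. In these 5 genes the HG-Res and HG libraries overlapped, and limma's adjusted p was 0.851 to 0.965. In all 22 members of the glucose table every HG-Res library remained below every Ctrl library, as in 79.7% of the 237 other genes marked lower. Those others include genes that did not pass the filter on low values, and both sets were listed as lower in HG. Nothing is therefore read from this difference. The median HG-Res level over the 22 was 45.2% of Ctrl, beside 47.6% in HG.

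Over all 47 members, 15 had every HG-Res library below every HG library and 4 had every one above, beside 14.8% and 15.0% of all genes. Without inhibitor replicate 3, 6 members fell and 0 rose, beside 6.23% of all genes called in either direction. Without that library and HG replicate 2, 12 fell and 5 rose, beside 10.0% and 11.2% of all genes (21.2% in either direction). The member that fell with all libraries also passed in both of these settings.

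**Figure D2:**
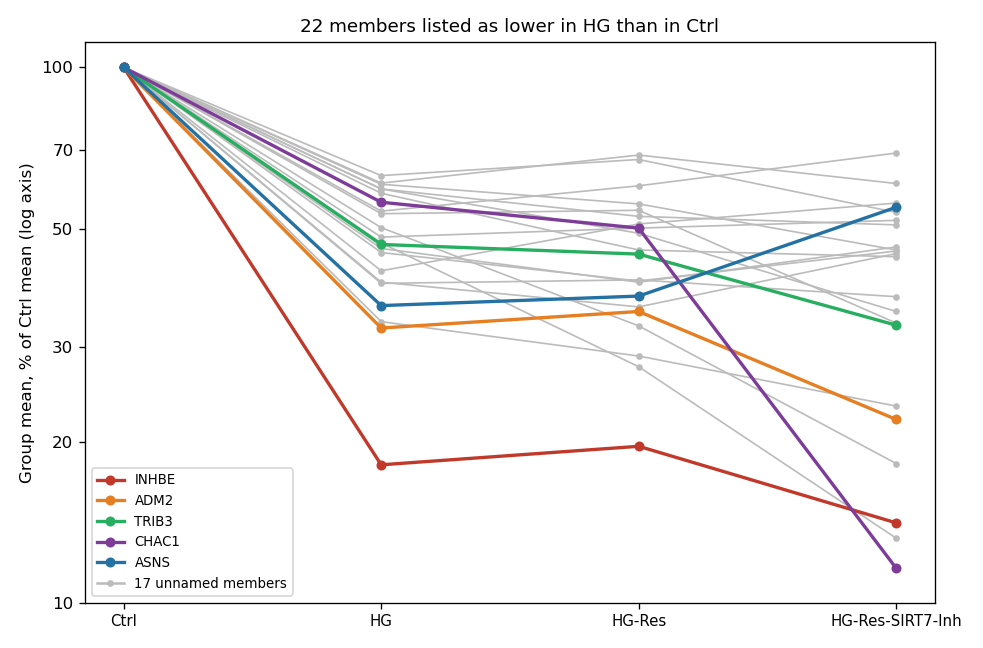
Group means of the 22 members in the glucose table as a percentage of their Ctrl mean (log axis), for the 4 groups; coloured lines are named members and grey lines the 17 unnamed ones. Medians are 47.6% in HG, 45.2% in HG-Res and 44.6% in the inhibitor group. The lines spread from 18.1% to 62.8% in HG, 19.6% to 68.6% in HG-Res and 11.6% to 69.2% in the inhibitor group.

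The inhibitor was then compared on a background of resveratrol and high glucose. With it, 9 of the 47 members fell relative to HG-Res and 0 rose in limma, that is 19.1% of members, beside 6.07% of all genes called, 4.19% lower and 1.88% higher. At an unadjusted p under 0.05, 19 members were lower and 2 higher, beside 12.0% and 12.7% of all genes. By the q-values of the authors' deposited table, 13 were lower and 0 higher, beside 5.38% and 3.31%. CHAC1 had the largest fall, ATF4 fell, and ASNS lay at the other end. The median log2 change was -0.18 over the members and 0.04 over all genes. Of the members, 72.3% had a lower mean with the inhibitor, against 45% of all genes.

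CHAC1 went from 51.85, 51.92 and 49.2 CPM in HG-Res to 13.4, 13.16 and 8.81 CPM with the inhibitor. Every inhibitor library lay far below every other library of the study, with a log2 difference of -2.04 ± 0.17 (SE; limma adjusted p = 0.000122, range 6.72e-07 to 0.00165 over 16 alternatives). ATF4 went from 582.88, 616.11 and 603.32 CPM to 393.82, 339.16 and 290.28 CPM. The groups did not overlap, and the log2 change was -0.83 ± 0.11 (SE, limma adjusted p = 0.00295, range 0.000268 to 0.024). Of the named members, CHAC1 and ATF4 were the 2 past the threshold.

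ENSG00000113739, the member that had fallen with resveratrol, was at 29.43, 30.85 and 30.67 CPM with the inhibitor; the log2 difference was -1.22 ± 0.09 (SE, limma adjusted p = 5.31e-05, range 5.37e-06 to 0.00117). ENSG00000168209 went from 111.93, 114.78 and 116.08 CPM to 66.62, 56.7 and 40.54 CPM. The log2 difference was -1.08 ± 0.17 (SE, limma adjusted p = 0.006, range 0.000187 to 0.0351). The other 5 unnamed members that fell had log2 changes from -0.87 to -0.43 and limma adjusted p-values from 0.00764 to 0.0333. Of the 22 members marked for glucose, 4 fell here, and of the 25 other tested members 5 fell; these 2 comparisons share no library.

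Several named members were lower with the inhibitor in every library without passing the threshold. ADM2 was at 3.91, 4.3 and 2.71 CPM with the inhibitor; the log2 difference was -0.56 ± 0.16 (SE, limma adjusted p = 0.0652, and 0.0365 without HG replicate 2 and inhibitor replicate 3). DDIT3 was at 23.98, 21 and 20.27 CPM; the log2 difference was -0.40 ± 0.11 (limma adjusted p = 0.0598). It passed without inhibitor replicate 1 (0.0309) and without the 2 libraries that stand apart (0.0173). TRIB3 was at 40.23, 36.02 and 27.14 CPM; the log2 difference was -0.45 ± 0.16 (limma adjusted p = 0.127), and TRIB3 passed in the same settings (0.0473 and 0.0375). INHBE was at 2.13, 1.22 and 1.32 CPM and overlapped HG-Res (log2 change -0.33 ± 0.18, limma adjusted p = 0.274).

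ASNS, the asparagine synthetase, was higher with the inhibitor, at 106.17, 114.42 and 179.19 CPM against 85.95, 90.97 and 95.59 CPM in HG-Res. The groups did not overlap, but replicate 3 lay far above the other inhibitor libraries, and the log2 change of 0.51 ± 0.18 (SE) missed the threshold (limma adjusted p = 0.122). It passed without inhibitor replicate 1 (log2 change 0.65, limma adjusted p = 0.0425) and without inhibitor replicate 3 and HG replicate 2 (0.28, adjusted p = 0.0259). The inhibitor group's mean was 54.8% of the Ctrl mean for ASNS and 11.6% for CHAC1, where HG-Res stood at 37.4% and 50.1%. Over the 22 members of the glucose table the median was 44.6% of Ctrl in the inhibitor group, beside 45.2% in HG-Res.

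Across the 47 members, 22 had every inhibitor library below every HG-Res library and 3 had every one above, beside 16.0% and 17.7% of all genes. The count of 9 was 5, 4 and 5 without HG-Res replicate 1, 2 or 3, beside 2.15%, 2.18% and 2.16% of all genes. It was 20 (18 lower and 2 higher) without inhibitor replicate 1, beside 13.8%. Without HG replicate 2 and inhibitor replicate 3, 18 fell and 3 rose, beside 9.15% and 9.62% of all genes (18.8% in either direction), and all 9 members kept the call and its direction.

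**Figure D3:**
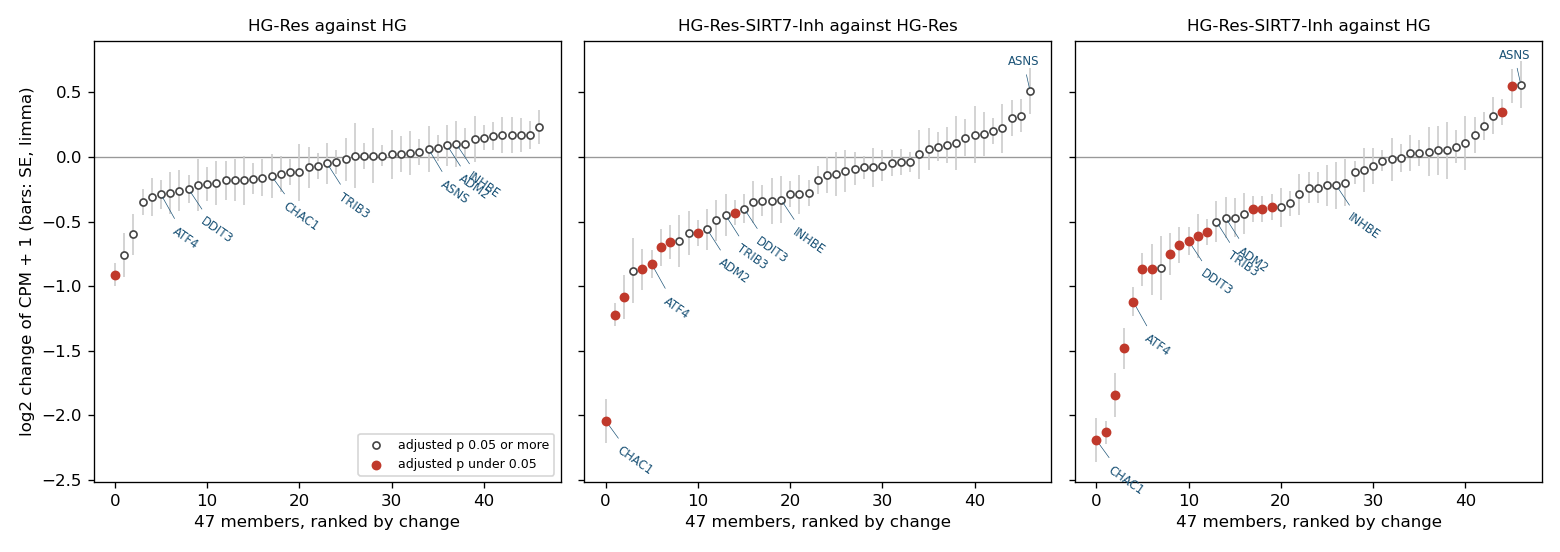
Log2 change of CPM + 1 (vertical axis, bars: SE from limma) of the 47 tested members, ranked within each of 3 comparisons; filled red points passed an adjusted p of 0.05 and named members are labelled. The left panel stays between -0.91 and 0.23 with 1 member called, and in the other panels CHAC1 lies at -2.04 and -2.19 and ASNS at 0.51 and 0.56.

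With both compounds, set against high glucose alone, 15 members fell and 2 rose in limma, 36.2% of the members, beside 10.8% of all genes called, 6.5% lower and 4.27% higher. At an unadjusted p under 0.05, 22 were lower and 4 higher, beside 13.8% and 14.1% of all genes. By the q-values of the authors' deposited table under 0.05, 12 were lower and 0 higher, beside 4.85% and 3.0%. The authors' own marks reach beyond that cut. They give ASNS (q = 0.0995) and ENSG00000116761 (q = 0.0654) as higher, and a further member as lower (q = 0.0569). This comparison shares its libraries with the 2 above and is given for the size of the combined difference. The log2 difference was -2.19 ± 0.17 for CHAC1 (SE, limma adjusted p = 8.1e-05), -1.12 ± 0.11 for ATF4 (limma adjusted p = 0.00036) and -0.65 ± 0.11 for DDIT3 (limma adjusted p = 0.00562). The calls of all 3 held in 16 alternatives. ATF4 thus stood at 737 ± 33 CPM in HG, 601 ± 16.8 CPM in HG-Res and 341 ± 51.8 CPM in the inhibitor group (SD, n = 3), and DDIT3 at 34.6 ± 2.51, 29 ± 1.68 and 21.8 ± 1.97.

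Among unnamed members, the log2 difference was -2.13 ± 0.09 for ENSG00000113739 and -1.84 ± 0.17 for ENSG00000168209 (SE, limma adjusted p = 1.22e-06 and 0.000203). For ENSG00000168209 a Ctrl level was listed, 407.12, 415.76 and 420.59 CPM. HG stood at 47% of its Ctrl mean, HG-Res at 27.6% and the inhibitor group at 13.2%, with no overlap between any of the 4 groups. The step from HG to HG-Res did not pass limma's threshold (log2 change -0.76 ± 0.17, SE, limma adjusted p = 0.104). The authors' deposited table gave that step a q-value of 5.89e-08. The other 10 unnamed members that fell had log2 changes from -1.48 to -0.39 (limma adjusted p from 0.000569 to 0.0463). Some of these calls depended on single libraries: the least stable was kept in 1 of the 9 settings with 1 library left out.

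The calls of the 2 members that rose also depended on single libraries. ENSG00000116761 was at 5.78, 5 and 5.46 CPM in HG and at 6.86, 9.7 and 8.75 CPM with both compounds (log2 change 0.55 ± 0.13, SE, limma adjusted p = 0.0269). The call was lost without any 1 HG replicate, HG-Res replicate 2 or 3 or inhibitor replicate 2 (adjusted p from 0.0509 to 0.101). ENSG00000115902 is among the members of the glucose table, at 60.62, 61.46 and 59.4 CPM in Ctrl. HG stood at 53.9% of its Ctrl mean, HG-Res at 60.1% and the inhibitor group at 69.2%. ENSG00000115902 was at 32.92, 33.95 and 30.92 CPM in HG and at 43.64, 43.02 and 38.89 CPM with both compounds (log2 change 0.35 ± 0.10, SE, limma adjusted p = 0.0444). This one failed to pass without any 1 library except inhibitor replicate 3 (adjusted p from 0.0607 to 0.143), and also with the replicate number as a block (0.0798). ASNS was higher by 0.56 ± 0.18 (limma adjusted p = 0.0717) and passed without inhibitor replicate 1 (log2 change 0.71, adjusted p 0.0289). Without inhibitor replicate 3 its change was smaller, 0.33, and passed (adjusted p 0.0212), as did 0.30 without that library and HG replicate 2 (adjusted p 0.0177). The log2 difference was -0.50 ± 0.16 for TRIB3 (limma adjusted p = 0.0737, and 0.0325 without inhibitor replicate 1), -0.47 ± 0.16 for ADM2 (0.0853) and -0.22 ± 0.18 for INHBE (0.427).

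Of the 47 members, 21 had every inhibitor library below every HG library and 4 had every one above, beside 15.3% and 12.8% of all genes. The count of 17 was 9, 9 and 11 without HG replicate 1, 2 or 3, beside 4.27%, 5.56% and 6.67% of all genes. It was 11 without HG-Res replicate 2 or 3, beside 6.57% and 6.49%, and 10 without inhibitor replicate 2, beside 4.97%. With the 2 groups alone in the fit it was 7, beside 3.27%. Without both libraries that stand apart, 24 members fell and 6 rose, beside 14.4% and 16.6% of all genes (31.0% in either direction), and all 17 calls were kept.

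The members were also followed library by library as their difference from the HG mean. The median over the 47 members was -0.07, -0.07 and -0.10 on the log2 scale in the 3 HG-Res libraries and -0.28, -0.28 and -0.38 in the 3 inhibitor libraries. All 3 inhibitor libraries had a median below all 3 HG-Res libraries, while the median over all genes was between -0.02 and 0.06 in these 6 libraries. The quartiles of the members spread from -0.82 to 0.03 in inhibitor replicate 3 and from -0.47 to 0.06 in replicate 1, and those of all genes widened as well, from -0.37 to 0.43 in replicate 3. Among replicates the members' median SD was 0.263 in the inhibitor group, 0.106 in HG and 0.045 in HG-Res. In inhibitor replicate 3, ATF4, CHAC1, ADM2, TRIB3 and DDIT3 were at their lowest and ASNS at its highest of the 3 inhibitor libraries.

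**Figure D4:**
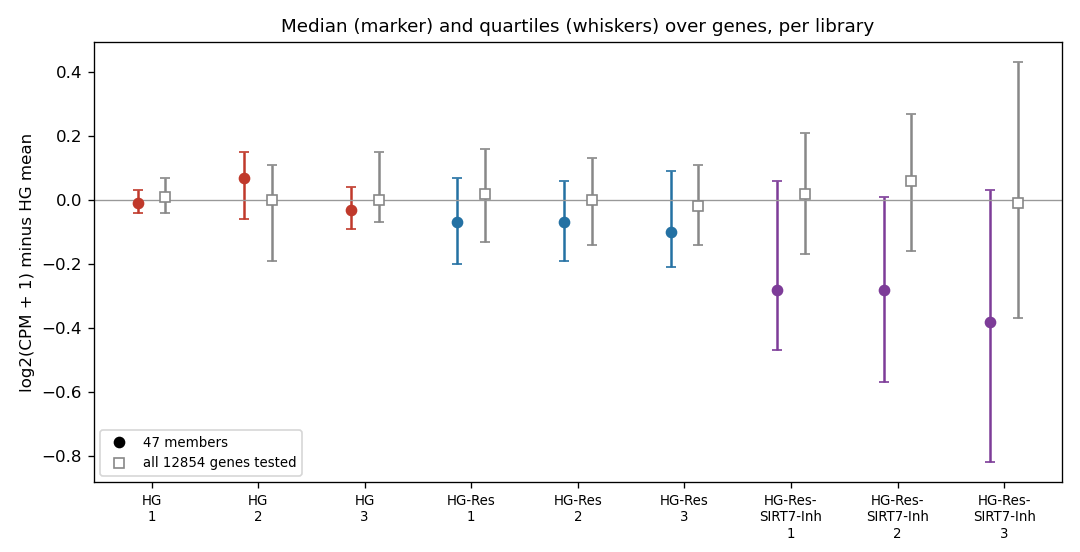
Median (marker) and quartiles (whiskers) of log2(CPM + 1) minus the HG mean in each high-glucose library, for the 47 members (filled) and all 12854 genes tested (open squares). The members' medians sit at -0.28, -0.28 and -0.38 in the inhibitor libraries, while those of all genes stay near 0.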

How the data were processed

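Trimmomatic and build rn6 are named, per the submitters' processing notes. Which aligner, counting tool, annotation and differential test the authors used is not given in the sources used here. The value columns that the authors deposited are headed TPM, but low values lie near multiples of 1 step per library, so they were read as CPM (counts scaled to an equal total per library). Of values under 2 CPM, 98.3 to 100% lay within rounding of a multiple of the step, but 59.1 to 78.3% lay within 0.1 read of a whole number. The share set for treating values as whole reads was 95%, so no count model was run. That share cannot decide whether the values are whole reads. They are given to 2 decimals and the step was 0.030 to 0.033 CPM, so rounding alone can shift a value by more than 0.1 read. The authors' log2 fold changes are quoted as deposited, and their deposited q-values where named; the deposited p-values are not printed. The table of HG against Ctrl lists marked genes alone and was not refitted.

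The 12854 genes with 0.5 CPM or more in 3 or more of the 9 libraries with high glucose were fitted as log2(CPM + 1), without further scaling, in limma 3.58.1 (R 4.3.3): a mean per group, 1 fit for the 3 high-glucose groups, intensity trend, Benjamini-Hochberg adjustment over all genes, threshold 0.05. Log2 changes are on this scale and understate those of low genes. The fit takes 1 variance per gene over the 3 groups, although their replicates spread unequally, most in the inhibitor group and least in HG-Res. The shared variance can therefore understate the error of comparisons with the inhibitor group and overstate that of HG-Res against HG. The code was tested on simulated data with equal spread in all groups, so that test does not cover the unequal spread found here. P-values measure the spread between samples labelled as biological replicates, whose separate origin beyond that label is not described.

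Members and lists were chosen with earlier results of these data known. The plan was to give values per library for named members and for those past a threshold. Since the tables hold identifiers without names, at most 2 unnamed members per direction and comparison, those with the largest change, are given by identifier. None of the wider pathway and marker lists, written as symbols, could be matched, so they are not used here. Promoters are from RefSeq (GRCr8), matched by symbol.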

Additional observations from a re-analysis of the deposited data

How the results depend on the processing

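The share of all genes called is given in brackets. Between HG-Res and HG the count of 1 member was 5 with the 2 groups alone (4.64%). By the authors' q-values it was 6 (3.8% lower and 4.67% higher). It was 17 without both libraries that stand apart (21.2%), and 1 to 6 when each library was left out in turn (0.148% to 6.23%). For the inhibitor group against HG-Res the count of 9 was 7 with the 2 groups alone (3.22%) and 21 without both libraries (18.8%). With each library left out it was 4 to 20 (2.15% to 13.8%). For the inhibitor group against HG the count of 17 was 7 with the 2 groups alone (3.27%) and 11 at 1.5-fold or more (5.63%). It was 30 without both libraries (31.0%) and 9 to 24 with each left out (4.27% to 21.1%). The 22 members of the glucose table were 11 at 2-fold or more. The cause of these shifts was not tested.

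The labels' replicate numbers do not state a shared batch. Same-numbered samples deviated together in some pairs and oppositely in others (correlation -0.547 to 0.636), and so did differently numbered ones (-0.724 to 0.777). With 3 replicates per group, these values cannot show whether a number marks a shared batch. With the number as a replicate block the counts were 1, 8 and 14, beside 0.35%, 5.05% and 8.65% of all genes. Sign changed in uncalled values alone: HG-Res against HG for INHBE without HG replicate 3 (-0.06; range to 0.27 with each library left out), for ADM2 without HG replicate 1 (-0.01) and for TRIB3 without HG replicate 2 or both libraries (0.06; lowest -0.15 with each left out), and the inhibitor group against HG for INHBE without both (0). The pseudocount of 0.1, the other filters and median-of-ratios scaling left each count within 1.5 times. The longer motif TGATGCAAT matched 0 of the 7 named promoters, against 3, and 0.17% of all. The planned count models were not run, since the set share of whole reads was not reached, which rounding of the values could by itself prevent. Depth was alike in all libraries, so a level of 1 to 2 CPM, as for INHBE, has the widest counting error among the named members.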
